A study of Mus musculus with 6 samples.

Results

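Immunoglobulin heavy variable (Ighv) segments were read out by poly-A RNA sequencing of distal colon from mice given 3% DSS, dextran sulfate sodium, in drinking water for 7 days. They were the rows of the deposited gene table with the biotype IG_V_gene and a symbol beginning with Ighv, which gave 113 segments of 54532 listed genes. A further 70 pseudogenes and 2 rows of another biotype carry Ighv symbols and were not counted as members. There were 3 libraries labelled Itgbl1 -/- (KO 1, KO 2 and KO 3), set against 3 labelled WT (WT 1, WT 2 and WT 3). All 6 came from DSS-treated mice and carry the same date in their labels, and no untreated colon was analysed here. DSS damages the lining of the large bowel and is widely used to induce colitis in mice. The labels do not describe the knockout allele, nor the strain, sex or age of the mice. They number the replicates without saying that each was a separate animal.

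A B cell builds the variable part of its antibody heavy chain by joining 1 Ighv segment to a diversity and a joining segment, and the joined exon is then spliced to the exons of a constant gene. All progeny of a B cell keep the same joined segment, so a few large clones of plasma cells, the antibody-secreting descendants of B cells, can raise the reads of a few segments. The gut wall holds many such cells, most of them making IgA. Segments are grouped into families by sequence, and the family is the first number in the symbol.

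The members lay on the minus strand of chromosome 12 between 113578504 and 116000461 (GRCm38), from Ighv5-2, nearest to the constant genes, to Ighv1-85. The gene Ighm, which encodes the constant part of IgM, lay below them at 113418558 to 113422730. The deposited gene lengths ran from 294 to 480 bases with a median of 353. By family, 53 segments belonged to Ighv1, 10 to Ighv5, 9 each to Ighv2 and Ighv8, and the other 12 families held 1 to 6 each.

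The ends of 5 segments are shown because these were the most abundant segments of the 6 libraries or, for Ighv3-6, lay among the 10 most abundant in 5 of them. Each line gives the last 60 coding bases in GENCODE M21, 5′ to 3′. Capitals mark the last in-frame cysteine codon, the conserved residue at which the variable framework meets the junction with the diversity segment.
Ighv6-3 (chr12:114391712-114391771, minus strand, GRCm38): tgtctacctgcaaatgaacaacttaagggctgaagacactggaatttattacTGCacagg
Ighv1-26 (chr12:114788372-114788431, minus strand, GRCm38): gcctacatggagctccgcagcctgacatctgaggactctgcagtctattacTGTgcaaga
Ighv1-9 (chr12:114583569-114583628, minus strand, GRCm38): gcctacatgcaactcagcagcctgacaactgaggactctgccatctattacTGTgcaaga
Ighv9-4 (chr12:114299961-114300020, minus strand, GRCm38): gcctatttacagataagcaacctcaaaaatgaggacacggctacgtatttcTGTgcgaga
Ighv3-6 (chr12:114288157-114288216, minus strand, GRCm38): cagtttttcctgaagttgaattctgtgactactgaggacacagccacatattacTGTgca

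Segments of 1 family resemble each other closely, and short reads can match more than 1 of them. Median identity of the coding sequences was 80.1% within families and 56.5% between them, and the nearest other member of each segment was 68.1 to 100% identical, with a median of 93.7%. In 14 segments the nearest member was at least 98% identical, and their reads summed over all libraries had a median of 6.5, against 383 for the other segments. Ighv1-62-2 and Ighv1-71 had the same coding sequence and 93 and 2 reads in all. Whether the low reads of such segments came from how the authors treated reads that map to several genes was not tested. Ighv1-26, the segment with the most reads, was 96.6% identical to Ighv1-34, with 12 differences in 351 coding bases. Coding bases 121 to 240 of the pair are shown, with the 8 differences in this stretch in capitals. Ighv1-26 had 5832 reads over the 6 libraries and Ighv1-34 had 185.
Ighv1-26 (chr12:114788483-114788602, minus strand, GRCm38): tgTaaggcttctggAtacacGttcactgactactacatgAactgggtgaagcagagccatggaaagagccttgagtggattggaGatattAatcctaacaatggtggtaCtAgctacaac
Ighv1-34 (chr12:114851301-114851420, minus strand, GRCm38): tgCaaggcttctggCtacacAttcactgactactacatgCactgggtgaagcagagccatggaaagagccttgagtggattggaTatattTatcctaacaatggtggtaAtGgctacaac

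Gene counts totalled 13326970 to 17465473 in the libraries labelled KO and 16800399 to 18321389 in those labelled WT. Itgbl1, the targeted gene, had 12, 4 and 10 reads in KO 1, KO 2 and KO 3 against 19, 6 and 5 reads in WT 1, WT 2 and WT 3, so the counts did not show its loss and each direction given here is between labels. In these counts KO 3 stood apart by a mitochondrial share of 12.8% of counts, against 3.53 to 4.88% in the other 5 libraries. Summed over 8 epithelial markers, the level was 992.7, 8006.5 and 56.2 CPM, counts scaled to a common library size, in KO 1, KO 2 and KO 3 against 14077, 17655 and 14141 CPM in WT 1, WT 2 and WT 3. Pancreatic enzyme genes summed to 1021 CPM in KO 2 and to 64.2 CPM or less in the other libraries.

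KO 1 held far more Ighv reads than any other library, while KO 2 and KO 3 held fewer than every WT library. The 113 segments summed to 49604 reads in KO 1, 5127 in KO 2 and 1911 in KO 3. They summed to 5920 reads in WT 1, 7700 in WT 2 and 12195 in WT 3. Scaled by library size these were 2451, 293.2 and 148.5 CPM in KO 1, KO 2 and KO 3 against 351.8, 487.3 and 719.2 CPM in WT 1, WT 2 and WT 3. The labels therefore overlapped, with the highest and the 2 lowest libraries all labelled KO. KO 1 lay 3.41-fold above WT 3, the next library, and 16.5-fold above KO 3.

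**Figure D1:**
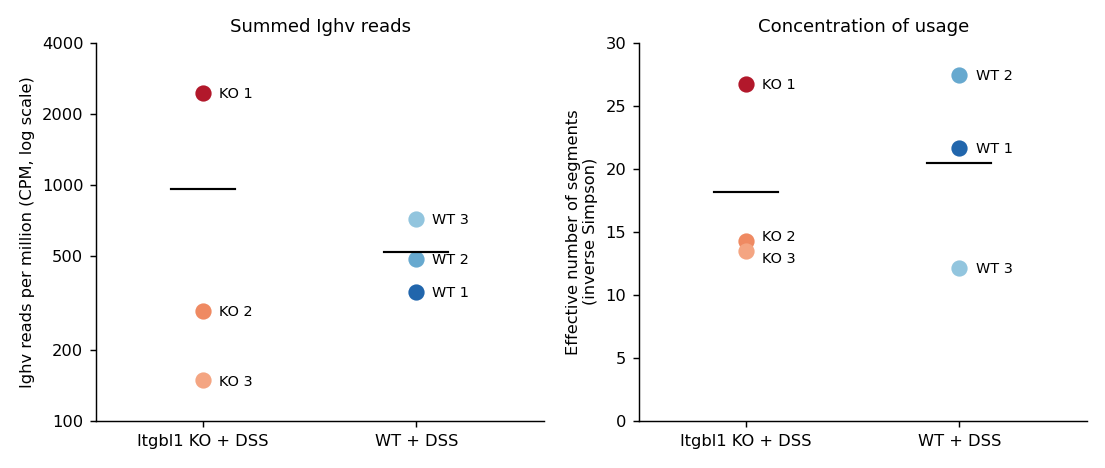
Left, summed level of the 113 Ighv segments (CPM, log axis) in each library, and right, the effective number of segments (inverse Simpson index). Each point is 1 library and each bar the group mean. KO 1 lies at 2451 CPM and the other 5 libraries between 148.5 and 719.2 CPM, and in the right panel the groups overlap.

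As a share of all counts, Ighv reads averaged 0.113 ± 0.158% in libraries labelled KO and 0.0496 ± 0.0194% in libraries labelled WT (SD, n = 3 each). The difference of 0.0631 percentage points was smaller than the spread between KO libraries (two-sided exact permutation p = 1). Without KO 1 the difference turned to -0.0277 percentage points (exact permutation p = 0.2). KO 1 had the highest CPM of the 6 libraries in 79 of the 102 segments with any reads. In bulk tissue fewer B-lineage cells and less antibody RNA per cell cannot be told apart.

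Jchain and the summed plasma cell and B cell lists varied less between the libraries than the Ighv level did. Jchain, which encodes the chain that joins IgA and IgM into polymers, was at 1896, 1128 and 255.4 CPM in KO 1, KO 2 and KO 3 against 772.2, 957.1 and 1075 CPM in WT 1, WT 2 and WT 3. Mzb1, which encodes a chaperone of antibody assembly, was at 131.1, 64.8 and 35.3 CPM against 40.6, 19.6 and 25.7 CPM in the same order of libraries, a log2 ratio of 1.43 ± 0.51 (SE) that did not pass (edgeR quasi-likelihood, adjusted p = 0.161). Cd38, which encodes a surface enzyme found on plasma cells and on other cells, had the smallest p of the plasma cell list and went the other way. It was at 147.8, 182.2 and 86.0 CPM in KO 1, KO 2 and KO 3 against 768.4, 392.5 and 624.6 CPM in WT 1, WT 2 and WT 3, so the labels did not overlap, and its log2 ratio of -2.10 ± 0.44 (SE) did not pass (edgeR adjusted p = 0.094). The 18 plasma cell genes had a median log2 ratio of 0.18, with 11 positive and 0 called at an adjusted p under 0.05. The 18 B cell genes had a median of -0.12, with 9 positive and 0 called, and upper-quartile scaling turned it to 0.028. Without KO 1 the median was -0.25 for the plasma cell genes and -0.47 for the B cell genes, and without WT 1 that of the B cell genes was 0.39. Over all 16861 genes tested the median was 0.061, or 0.206 with that scaling, and 0% were called. Summed over the list, B cell genes were at 373.9, 247.0 and 201.4 CPM in KO 1, KO 2 and KO 3 against 443.2, 125.8 and 274.6 CPM in WT 1, WT 2 and WT 3. The other lists also had 0 called by edgeR with all 6 libraries. Other fits made calls, though not among B cell, germinal centre or recombination genes. Without KO 2, edgeR called 1 plasma cell, 1 T cell and 3 epithelial genes lower, 1 pancreatic gene higher, and 1 higher and 3 lower in the list of B cell survival and IgA transport, where 2.64% of all genes were called higher and 7.75% lower. DESeq2 called 1 plasma cell and 2 epithelial genes lower, 5 pancreatic and 1 lymph node stroma gene higher, and again 1 higher and 3 lower in the survival and transport list, where 4.02% of all genes were called higher and 6.45% lower. Of 12 genes of recombination and early B cells 7 were tested, with a median log2 ratio of -0.038. These 7 were Dclre1c, Lig4, Xrcc4, Xrcc5, Xrcc6, Prkdc and Nhej1. Rag1, Rag2, Dntt, Vpreb1 and Igll1 failed the low-count filter, so the median does not cover them. Rag1, which encodes part of the enzyme that cuts the segments for joining, had 0 reads in every library. The medians were -0.097 for 12 germinal centre and switching genes, -0.21 for 8 T cell genes and 1.31 for 5 of 7 lymph node stroma genes. Of those 5 genes 3 had a positive ratio, and Lta and Ltb were at -0.53 and -0.31. The stroma median was 0.44 without the low-count filter and -0.315 with at least 10 reads in every library. Among 11 genes of B cell survival and IgA induction and transport the median was 0.093, with 6 positive. At an unadjusted edgeR p under 0.05, 4 were higher and 3 lower, against 11.8% and 12.3% of all genes. By log2 ratio the 4 were Il6 (4.94), Cxcl13 (2.01), Madcam1 (1.59) and Tgfb1 (0.98). The 3 were Ccl28 (-3.67), Tnfsf13 (-2.61) and Pigr. Pigr, which encodes the receptor that carries IgA across the epithelium, was at 63.1, 376.9 and 8.70 CPM in KO 1, KO 2 and KO 3 against 2096, 4690 and 3672 CPM in WT 1, WT 2 and WT 3. The Pigr log2 ratio was -4.54 ± 1.31 (SE; edgeR adjusted p = 0.119), beside a median of -2.54 for the 8 epithelial markers and 8.25 for the 3 pancreatic genes tested. Whether these other tissues had a part in the Ighv values was not tested.

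Among the heavy-chain constant genes, which give an antibody its class, IgG1 and IgE were at a higher CPM in every KO library than in any WT library, as were 15% of all genes tested. Igha took 68.1, 89.0 and 41.8% of the reads on the 8 heavy-chain constant genes in KO 1, KO 2 and KO 3 against 87.6, 96.3 and 94.9% in WT 1, WT 2 and WT 3. Ighg1, the IgG1 constant gene, took 25.1, 4.11 and 28.7% in the libraries labelled KO against 0.0633, 0.466 and 0.127% in those labelled WT, so its shares did not overlap. Its log2 ratio was 7.56 ± 1.71 (SE) and did not pass (edgeR quasi-likelihood, adjusted p = 0.0983). Ighe, the IgE constant gene, had 5703, 29 and 2599 reads in KO 1, KO 2 and KO 3 against 0, 1 and 9 reads in WT 1, WT 2 and WT 3, with the same adjusted p. The log2 ratios of the other 6 were 2.75 for Ighg2c, 1.496 for Ighg2b, 0.46 for Igha, 0.21 for Ighm, 0.02 for Ighd and -0.93 for Ighg3, and none passed. DESeq2, with 4.02% of all genes called higher, and edgeR without KO 2, with 2.64%, each called 3 of the 8 as higher. Reads do not link a segment to a constant gene, so which segments were joined to Ighg1 was not measured. There were 12.04, 8.35 and 6.12 Ighv reads per 100 heavy-chain constant reads in KO 1, KO 2 and KO 3, against 9.61, 10.3 and 12.9 in WT 1, WT 2 and WT 3.

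Every library used many segments, and its 5 to 11 most abundant ones held 50% or more of its Ighv reads. With at least 1 read counted, 98, 76 and 63 segments were seen in KO 1, KO 2 and KO 3 against 87, 88 and 87 in WT 1, WT 2 and WT 3. At the Ighv depth of the smallest library, 1911 reads, the expected numbers were 85.0, 70.5 and 63 in KO 1, KO 2 and KO 3 against 79.7, 80.4 and 74.9 in WT 1, WT 2 and WT 3. KO 2 and KO 3 thus lay below, and KO 1 above, all WT libraries at equal depth. The group means of 72.8 ± 11.2 for KO and 78.3 ± 3.00 for WT (SD, n = 3 each) did not differ beyond that spread (exact permutation p = 0.6). Reads were found in all 6 libraries for 53 segments, which held 80.3 to 96.1% of the Ighv reads of each library. Another 49 segments had reads in 1 to 5 libraries, and 11 had none in any. A segment at 0 in KO 3 could still hold up to 0.157% of its Ighv reads, and one at 0 in KO 1 up to 0.00605%. These limits, like the intervals given here, cover counting error only.

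No difference in how concentrated usage was could be shown between the labels. The effective number of segments, the inverse Simpson index, is the number of equally used segments that would give the same concentration. It was 26.7, 14.3 and 13.5 in KO 1, KO 2 and KO 3 against 21.7, 27.5 and 12.2 in WT 1, WT 2 and WT 3. The means were 18.2 ± 7.42 for KO and 20.4 ± 7.73 for WT (SD, n = 3 each; exact permutation p = 0.9). WT 3, with 12195 Ighv reads, had the lowest effective number. The next lowest were KO 3 and KO 2, with the fewest reads (1911 and 5127), while KO 1 had the most (49604). Whether read depth had a part in the concentration was not tested. The 10 most abundant segments held 50.2, 67.1 and 69.9% of the Ighv reads in KO 1, KO 2 and KO 3 against 57.7, 49.3 and 63.1% in WT 1, WT 2 and WT 3 (exact permutation p = 0.5). No p for these 6 single values per library was below 0.5, and after Benjamini-Hochberg adjustment over the 6 all were 1. Kappa light-chain variable segments, treated the same way, had effective numbers of 21.1, 7.99 and 15.5 in KO 1, KO 2 and KO 3 against 15.9, 25.6 and 18.7 in WT 1, WT 2 and WT 3. The heavy-chain number was the higher in 4 of 6 libraries, with a mean log2 ratio of 0.15 (exact paired permutation p = 0.5).

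**Figure D2:**
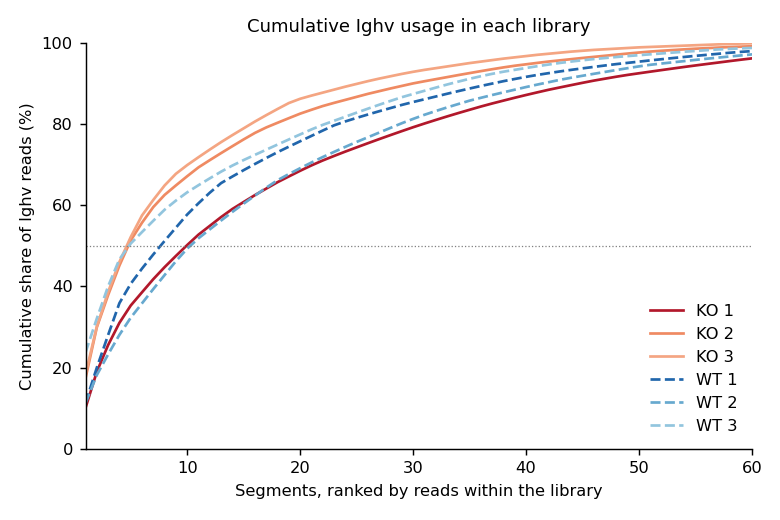
Cumulative share of Ighv reads (percent) against segments ranked by reads within each library, solid for libraries labelled KO and dashed for WT. The dotted line at 50% is crossed at 10, 5 and 5 segments in KO 1, KO 2 and KO 3 and at 8, 11 and 5 segments in WT 1, WT 2 and WT 3.

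The leading segment differed between most libraries, and Ighv1-26 led in 3 of them. In KO 1 it was Ighv6-3, with 4987 reads or 10.1% of Ighv reads (95% Wilson interval 9.79 to 10.3%). Ighv1-26 led KO 2 with 17.3% (16.3 to 18.4%) and KO 3 with 18.3% (16.6 to 20.1%). It also led WT 3 with 23.7% (23.0 to 24.5%). In WT 1 the leader was Ighv1-9 with 11.3% (10.5 to 12.1%), and in WT 2 it was Ighv9-4 with 11.2% (10.5 to 11.96%). The share of the leading segment averaged 15.2 ± 4.51% for KO and 15.4 ± 7.19% for WT (SD, n = 3 each; exact permutation p = 1).

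By share of Ighv reads, Ighv1-26 stood high in KO 2, KO 3 and, among the libraries labelled WT, in WT 3 alone. It held 2.57% in KO 1, 2.77% in WT 1 and 3.44% in WT 2. Ighv6-3 and Ighv9-4 stood high in 1 library each. Ighv1-26 was at 62.9, 50.8 and 27.2 CPM in KO 1, KO 2 and KO 3 against 9.75, 16.8 and 170.5 CPM in WT 1, WT 2 and WT 3. Ighv6-3, a member of a family of 5, was at 246.4, 4.98 and 4.27 CPM in KO 1, KO 2 and KO 3 against 2.73, 6.83 and 2.06 CPM in WT 1, WT 2 and WT 3. Ighv9-4 was at 1.73, 0.572 and 0 CPM in the libraries labelled KO against 2.73, 54.7 and 1.65 CPM in those labelled WT, so its level rested on WT 2. In the same way Ighv3-8 was at 218.2 CPM in KO 1 and at 11.4 CPM or less elsewhere, and Ighv1-69 held 12.6% of Ighv reads in KO 2 and 0.576 to 1.33% in the others. Ighv1-81 held 2.76, 1.15 and 11.8% in KO 1, KO 2 and KO 3 against 8.70, 3.40 and 2.71% in WT 1, WT 2 and WT 3, and Ighv7-3 held 1.601, 3.86 and 6.12% against 8.04, 0.481 and 0.722%, so that both were high in 1 or more libraries of each label. Ighv1-9 held 3.26, 1.35 and 1.52% in the libraries labelled KO against 11.3, 3.52 and 6.65% in those labelled WT. Ighv1-39 held 2.68, 0.741 and 1.88% in the libraries labelled KO against 3.75, 3.55 and 8.36% in those labelled WT, and Ighv1-78 held 0.571, 0.351 and 1.05% against 3.48, 5.09 and 0.525%. Among the 6 lists of 10 most abundant segments there were 30 different segments, 16 of them in 1 list only. Ighv3-6 and Ighv1-81 were each in 5 of the 6 lists, and Ighv1-9, Ighv1-26 and Ighv1-39 in 4.

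**Figure D3:**
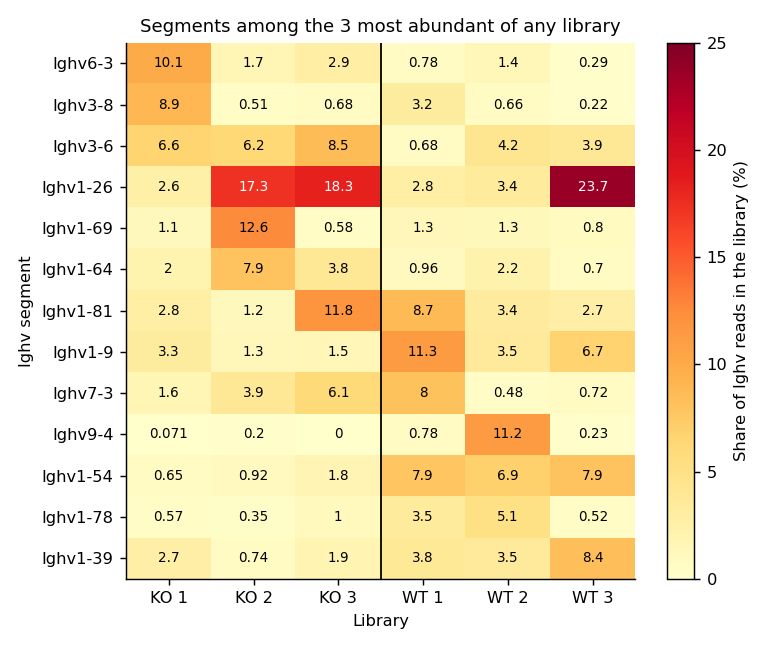
Share of Ighv reads (percent, colour and number) of the 13 segments that were among the 3 most abundant of any library, with libraries labelled KO left of the line and WT right of it. Ighv1-26 exceeds 15% in KO 2, KO 3 and WT 3, and Ighv6-3 and Ighv3-8 in KO 1, Ighv1-69 in KO 2 and Ighv9-4 in WT 2 are high in 1 library each.

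In shares of reads, pairs of libraries under 1 label were on average closer than pairs across labels. By rank of segments this was plain for pairs labelled WT only. The test on shares cannot pass 0.05 with 3 against 3 libraries. The Bray-Curtis dissimilarity, the share of reads that would have to be moved to another segment to make 2 libraries equal, averaged 0.539 over the 9 pairs between labels and 0.457 over the 6 pairs within them. The difference of 0.082 had an exact permutation p of 0.1, the smallest that 3 against 3 libraries allow, and ran from 0.0567 to 0.135 when each library was left out in turn. Between shares of families in place of segments the difference was 0.0078 (exact permutation p = 0.8), so the closeness within labels was not seen at the level of families. Pairs labelled KO were at 0.415 to 0.541, pairs labelled WT at 0.413 to 0.443, and pairs between labels at 0.468 to 0.630. The ranges overlapped: KO 1 was closer to WT 2 (0.468) than to KO 3 (0.541). Spearman correlations over segments averaged 0.663 for pairs labelled KO, 0.786 for pairs labelled WT and 0.657 between labels. KO 1 and KO 2 were at 0.787, while KO 3 was at 0.602 with KO 1 and 0.601 with KO 2. Pairs between labels were at 0.614 to 0.707. In every pair the chi-square over segments was at least 19.8 times its degrees of freedom, which sets the libraries against counting error alone.

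Single segments were compared by level with edgeR's quasi-likelihood test over all genes, and none of the Ighv segments was called. Of the 113 segments 70 passed the filter on low counts. At an adjusted p under 0.05 edgeR called 0 of them, against a background of 0% of 16861 genes, and at an unadjusted p under 0.05 it had 6 higher and 4 lower. It also called 0 of 102 segments without the low-count filter, where 0.0939% of all genes were called higher and 0.528% lower, and 0 of 79 without KO 2, where the shares were 2.64% and 7.75%. The 6 and 4 are 8.57 and 5.71% of those tested, against 11.8% higher and 12.3% lower over all genes. DESeq2 called 3 higher and 3 lower among 60 segments with an adjusted p, against a background of 4.02% higher and 6.45% lower, and limma-voom called 0. CPM values did not overlap between labels in 1 segment that was higher and 2 that were lower, against 15% and 17.3% of all genes. Of the 70 segments 46 had a positive log2 ratio (65.7%), against 53.1% of all genes. The median was 0.55 with all libraries and -1.87 without KO 1, where 12 of 73 were positive. It was also negative with limma-voom, at -0.44.

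The segments with the smallest p were Ighv1-54 on the lower side and Ighv1-55 on the higher side, which are neighbours on the chromosome. Ighv1-54 (ENSMUSG00000094787, chromosome 12, 115193675 to 115194134) had 323, 47 and 35 reads in KO 1, KO 2 and KO 3 against 465, 533 and 967 reads in WT 1, WT 2 and WT 3. Its levels were 16.0, 2.69 and 2.72 CPM against 27.6, 33.7 and 57.0 CPM in the same order of libraries. Every KO library lay below every WT library, and the log2 ratio was -2.46 ± 0.77 (SE), which did not pass (edgeR adjusted p = 0.133) but was called by DESeq2 (adjusted p = 0.00996). Ighv1-55 (chromosome 12, 115208095 to 115208591) was at 104.5, 12.8 and 11.0 CPM in KO 1, KO 2 and KO 3 against 5.17, 4.94 and 10.8 CPM in WT 1, WT 2 and WT 3. The labels did not overlap, though KO 3 and WT 3 nearly met, and the log2 ratio was 2.62 ± 0.95 (SE; edgeR adjusted p = 0.164). Without KO 1 the log2 ratio of Ighv1-55 was 0.78, and it did not pass.

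Ighv1-54 and Ighv1-55 are shown for the same stretch, coding bases 121 to 240, to let the pair be told apart. They were 86.9% identical over the coding sequence, with 46 differences in 351 bases, and capitals mark the 16 differences in this stretch. Neither was the nearest member of the other: the nearest was 92.9% identical to Ighv1-54 and 95.4% identical to Ighv1-55. Whether reads were shared with those nearest members was not tested.
Ighv1-54 (chr12:115193786-115193905, minus strand, GRCm38): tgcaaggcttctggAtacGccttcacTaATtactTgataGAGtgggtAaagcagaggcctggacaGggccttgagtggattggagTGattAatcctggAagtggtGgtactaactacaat
Ighv1-55 (chr12:115208206-115208325, minus strand, GRCm38): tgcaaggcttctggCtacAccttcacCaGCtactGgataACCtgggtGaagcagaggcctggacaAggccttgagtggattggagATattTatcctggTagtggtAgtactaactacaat

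In the other 8 segments of smallest p the labels overlapped in level or the reads were few, and KO 1 or WT 2 often stood out. On the higher side Ighv6-3 had a log2 ratio of 4.46, Ighv1-66 one of 2.79, Ighv1-64 one of 2.03 and Ighv14-3 one of 2.00. Ighv1-66 had 372, 17 and 33 reads in KO 1, KO 2 and KO 3 against 16, 23 and 13 reads in WT 1, WT 2 and WT 3. Ighv1-64 had 988, 407 and 73 reads in the libraries labelled KO against 57, 168 and 85 reads in those labelled WT. Ighv14-3 had 348, 49 and 68 reads in the libraries labelled KO against 13, 37 and 54 reads in those labelled WT. Without KO 1 the log2 ratio of Ighv6-3 was 0.27, that of Ighv1-66 was 0.73, that of Ighv1-64 was 1.22 and that of Ighv14-3 was 0.94. On the lower side Ighv9-4 was at -4.61, Ighv8-5 at -3.41, Ighv3-1 at -3.27 and Ighv4-1 at -2.08. Ighv3-1 had 14, 0 and 1 reads in KO 1, KO 2 and KO 3 against 35, 71 and 25 reads in WT 1, WT 2 and WT 3, and did not overlap in CPM. Ighv8-5 had 10, 3 and 0 reads in the libraries labelled KO against 28, 89 and 8 reads in those labelled WT. Ighv4-1 had 112, 15 and 4 reads in the libraries labelled KO against 93, 239 and 138 reads in those labelled WT. Without WT 2 the log2 ratio of Ighv9-4 was -1.52. None of these 8 passed with edgeR, whose adjusted p ran from 0.154 to 0.244. Ighv3-5, named after its values were seen, failed the filter but was called by DESeq2. It had 1073, 153 and 0 reads in KO 1, KO 2 and KO 3 against 0, 1 and 2 reads in WT 1, WT 2 and WT 3. Ighv2-7 had 402 reads in KO 1 and 0 in the other 5 libraries.

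Segments were also compared by their share of the Ighv reads of each library. Of 94 segments with at least 10 reads summed over the libraries, some of which, such as Ighv2-7, had reads in KO 1 alone, the shares did not overlap between labels in 7 that were higher in the libraries labelled KO (7.45%) and 11 that were lower (11.7%). Kappa variable segments gave 7.87% higher and 10.1% lower by the same rule, so the heavy-chain counts lay near those of another segment group. Ighv1-54 held 0.651, 0.917 and 1.83% of Ighv reads in KO 1, KO 2 and KO 3 against 7.85, 6.92 and 7.93% in WT 1, WT 2 and WT 3. The means of 1.13 ± 0.619% for KO and 7.57 ± 0.561% for WT (SD, n = 3 each) were separated by more than either spread. Ighv1-55 held 4.26, 4.37 and 7.38% in the libraries labelled KO against 1.47, 1.01 and 1.501% in those labelled WT. Ighv3-6 held 6.59, 6.18 and 8.53% in the libraries labelled KO against 0.676, 4.22 and 3.88% in those labelled WT, and Ighv8-12 held 1.08, 0.527 and 0.105% against 2.36, 1.84 and 2.25%. For each such segment the exact permutation p was 0.1, the smallest possible. These segments were picked out for not overlapping, so neither that p nor a gap between their means adds to the count.

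**Figure D4:**
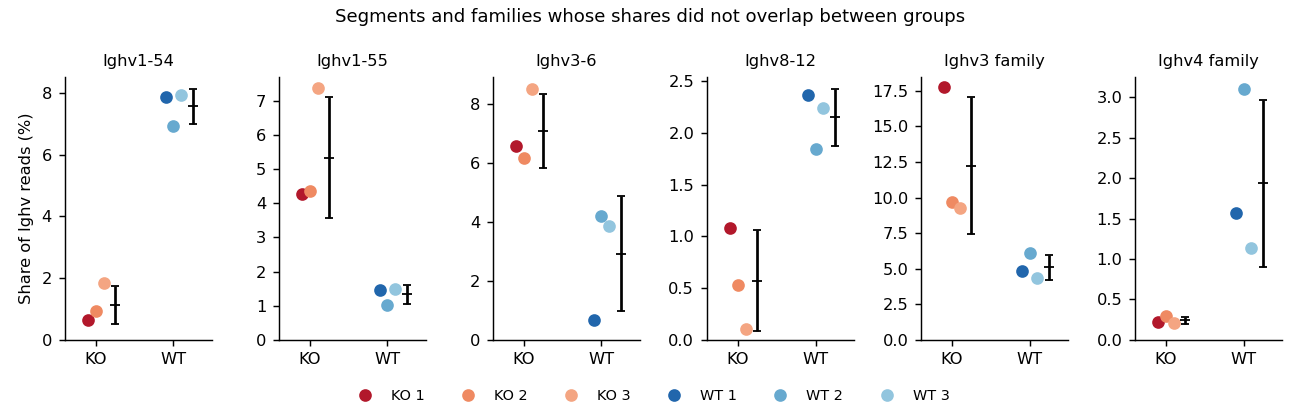
Share of Ighv reads (percent) in each library for 4 segments and 2 families whose shares did not overlap, KO left and WT right in each panel, with the group mean and SD as bars beside the points. The axes start at 0 and differ in scale. Ighv1-54 lies at 0.651 to 1.83% in libraries labelled KO and at 6.92 to 7.93% in those labelled WT.

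Among families, Ighv1 held the most reads in every library. It took 42.7, 63.99 and 69.2% of Ighv reads in KO 1, KO 2 and KO 3 against 60.8, 55.5 and 74.9% in WT 1, WT 2 and WT 3 (exact permutation p = 0.7). Ighv3, with 6 segments, took 17.8, 9.67 and 9.26% in the libraries labelled KO against 4.81, 6.08 and 4.36% in those labelled WT, so its shares did not overlap. The means were 12.2 ± 4.81% for KO and 5.08 ± 0.889% for WT (SD, n = 3 each). Ighv4, whose 1 member here is Ighv4-1, took 0.226, 0.293 and 0.209% in the libraries labelled KO against 1.57, 3.10 and 1.13% in those labelled WT. Both had an exact permutation p of 0.1 and an adjusted p of 0.75 over the 15 families with reads. Not overlapping in 1 family higher and 1 lower is 6.67% each, against 20% each among kappa families. Ighv14 took 3.99, 1.95 and 4.55% in KO 1, KO 2 and KO 3 against 0.608, 1.17 and 2.05% in WT 1, WT 2 and WT 3, with KO 2 below WT 3. The segments behind the Ighv3 share differed between libraries: in KO 1 Ighv3-8 held 8.90%, Ighv3-6 held 6.59% and Ighv3-5 held 2.16%, while in KO 3 Ighv3-6 alone held 8.53%.

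The labels overlapped in how usage was spread along the locus. The 57 segments nearest to the constant genes held 59.3, 30.7 and 31.8% of Ighv reads in KO 1, KO 2 and KO 3 against 47.1, 46.6 and 29.7% in WT 1, WT 2 and WT 3. The means were 40.6 ± 16.2% for KO and 41.1 ± 9.87% for WT (SD, n = 3 each; exact permutation p = 1). KO 1 drew most on the nearer side, where Ighv3-6, Ighv3-8 and Ighv6-3 are members 39, 41 and 44 in order from the constant genes. The 3 libraries that Ighv1-26 led had the 3 lowest shares on the nearer side. Ighv1-26 is member 67, on the farther side, so its own reads lower the nearer share of those libraries.

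**Figure D5:**
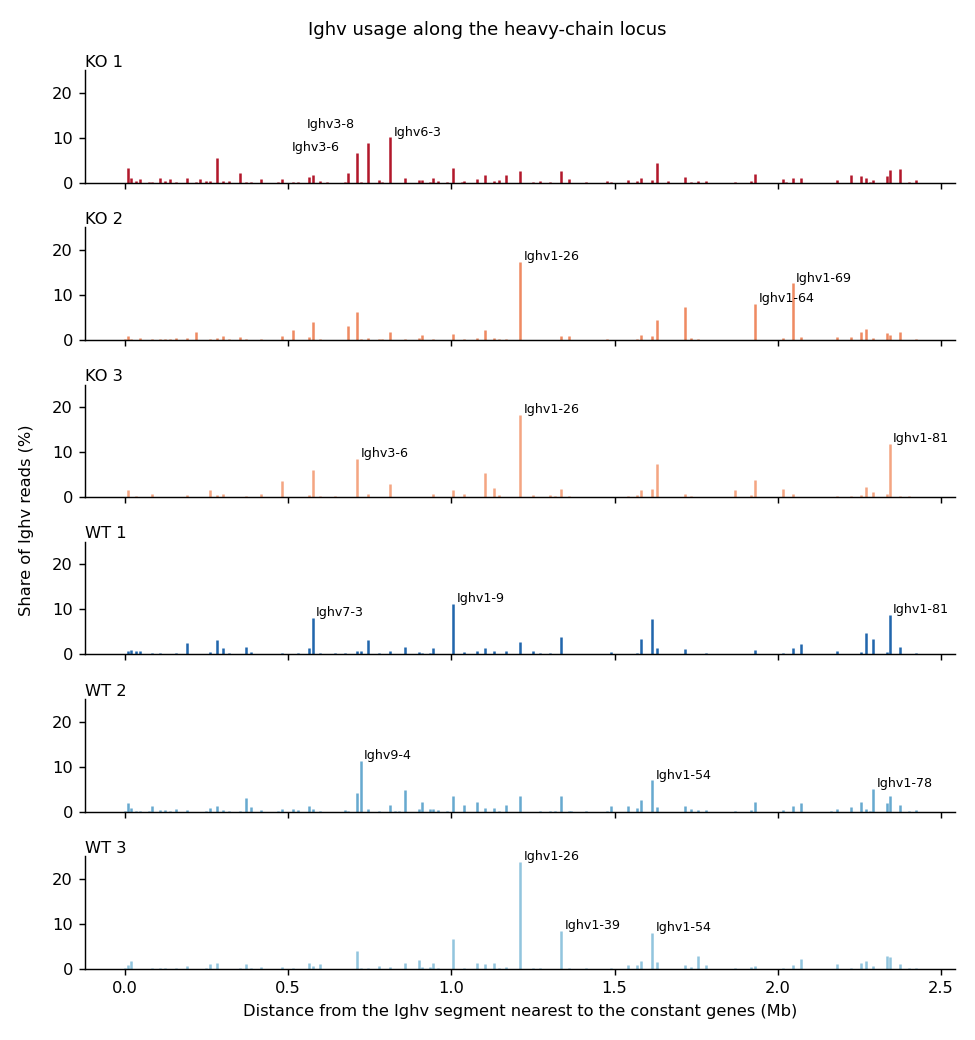
Share of Ighv reads (percent) of each segment against its distance in Mb from Ighv5-2, the member nearest to the constant genes, 1 panel per library with KO above WT and the 3 most abundant segments named. High segments are scattered over the 2.42 Mb of the locus, and Ighv1-26 stands out in KO 2, KO 3 and WT 3.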

How the data were processed

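RNA of the 6 libraries was sequenced after poly-A selection and fragmentation. The deposited values are raw whole-number counts of reads for each gene. Before counting, the authors removed adaptor sequence, poor reads and those with unread bases, per the labels' protocols. The submitters' processing notes list featureCounts 1.5.0-p3, HISAT2 2.0.5, StringTie 1.3.3b and DESeq2, and the builds mm10 and GRCm38, without roles. How multi-mapped reads were counted, and whether strand was used, is not stated there.

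The comparison over all genes used edgeR 4.0.16 in R 4.3.3: TMM scaling, filterByExpr (minimum count 10, minimum total 15), the robust quasi-likelihood test with no covariate, and Benjamini-Hochberg adjustment over 16861 genes at 0.05. Log2 ratios are KO over WT, and CPM used TMM-scaled library sizes. Alternatives were DESeq2 1.42.0, limma-voom (limma 3.58.1), other scalings and filters, a replicate block and leaving out each library. Shares, concentration and dissimilarity came from raw counts within a library and were compared by two-sided exact permutation, for which 0.1 is the smallest p with 3 against 3. The edgeR test was tried on counts simulated with set dispersions, which were not those of the Ighv segments. It therefore does not show how often real differences in them would be called. The concentration and equal-depth measures and the permutation test were tried on made-up data with known answers. P-values measure only the spread between these libraries, which may be technical.

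Every member had the same start and end in GENCODE M21 (GRCm38), whose transcripts gave the sequences. Named segments were the 3 most abundant per library, the 5 higher and 5 lower with the smallest p, and the one with the most reads. Ighv3-5, Ighv2-7, Ighv8-12, Ighv1-34, the identical pair and the segments recurring among the 10 most abundant were picked after their values were seen, as was the comparison of shares that do not overlap. The members and the gene lists (plasma cell, B cell, germinal centre, recombination, constant genes, IgA transport, T cell, epithelium, pancreas, lymph node stroma) were chosen with earlier results of these data known. One lymph node stroma symbol did not match the table.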

Additional observations from a re-analysis of the deposited data

How the results depend on the processing

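No Ighv segment was called by edgeR under any scaling or filter, with limma-voom, with segments summed by family or with any library left out (0 to 0), while DESeq2 called 6, among them Ighv1-54 (-2.51), Ighv1-66 (2.75), Ighv3-1 (-3.38) and Ighv8-5 (-3.52 on the log2 scale). The labels do not say whether the replicate numbers pair the libraries. After removal of group means, same-numbered libraries correlated over genes at -0.198, 0.0845 and -0.0837, and KO 1 correlated best with WT 3. With 3 libraries per group such values cannot decide whether libraries were paired. With the replicate block 0 segments and 3 of 16861 genes were called, and the median log2 ratio of the segments was -0.64. Leaving out each library, KO minus WT ran from -0.0277 to 0.112 percentage points for the Ighv share of counts, from -6.54 to 1.26 for the effective number and from -2.25 to 3.99 points for the leading segment. It ran from 1.93 to 11.8 points for the 10 most abundant, from -11.6 to -1.31 for segments at equal depth and from -9.86 to 4.43 points for the 57 nearest segments. The last was 0.744 points for the 37 nearest segments and 3.91 points without the most abundant segment of each library, against -0.516 as reported. The share of Ighv1 ran from -10.4 to 2.84 points, positive without KO 1 and, at 0.456, without WT 3. Segments with shares that did not overlap numbered 18 with all libraries and 21 to 34 with 1 left out, the most being 34 without KO 1 and 28 without KO 3; with 2 against 3 libraries there are fewer values to overlap. Depth limits the rarer segments most in KO 3, where 30 segments had at least 10 reads, against 52 to 90 in the others.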

Other observations

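The Ighv pseudogenes, which were not members, had 10, 2 and 39 reads in all in KO 1, KO 2 and KO 3 against 5, 18 and 8 reads in WT 1, WT 2 and WT 3, so that KO 3 had the most although its segments had the fewest reads.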
